A study of Mus musculus with 30 samples.

Results

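The MCM helicase genes were taken as the 9 mouse genes Mcm2 to Mcm10, chosen by name, and each was placed by its mm10 RefSeq position against the replication initiation zones of wild-type mouse embryonic stem cells. All 9 were found among 20554 protein-coding genes on chromosomes 1 to 19. The zones come from 1 OK-seq library of E14TG2a cells, a widely used mouse line of this kind, wild type in genotype. They were grown with LIF, a GSK3 inhibitor and a MEK inhibitor, and were labelled with 10 µM EdU, a thymidine analogue, for 2 min. The series also holds 29 samples of SCAR-seq, some of them from the clones MCM2_2A #1 and MCM2_2A #2 with the MCM2 substitutions Y81A and Y90A; these were not analysed here. With a single library there was no replicate error, no comparison between genotypes and no test, and the depth behind each zone is unknown.

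MCM2 to MCM7 are the subunits of the ring-shaped helicase that is loaded onto DNA as a double hexamer during G1 phase, when origins are licensed, and that unwinds the parental DNA ahead of the polymerases in S phase. MCM2 also binds histones H3 and H4 through its N-terminal tail. MCM8 and MCM9 form a related complex that acts in homologous recombination and in germ cells, and MCM10 is not a helicase subunit but a replication factor needed to activate the helicase at origins. OK-seq maps Okazaki fragments by strand, which shows which way forks travel. An initiation zone is a stretch over which forks part, with leftward forks prevailing on its left and rightward forks on its right. Each of the 2844 zones in the list has a breakpoint bin of 1 kb, a left arm and a right arm, and left and right here follow the chromosome coordinates.

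Of the 9 genes, 5 had an end inside an initiation zone (55.6%), against 32.4% of all protein-coding genes. With only the zones of at least median width, 1 of the 9 was inside, against 20.1% of all protein-coding genes, so the order of the shares turned. All 5 encode subunits of the helicase ring: Mcm2, Mcm4, Mcm5, Mcm6 and Mcm7. The only ring subunit gene outside zones was Mcm3, and Mcm8, Mcm9 and Mcm10 were outside too. No MCM gene lay between: the same 5 were within 20 kb of a zone, against 38.5% of all protein-coding genes, and the closest of the other 4, Mcm8, was 99.1 kb from a zone edge. No MCM gene held a breakpoint in its body, which 4.02% of protein-coding genes did. The median distance from the nearer gene end to the nearest breakpoint was 29.1 kb over the 9 MCM genes, against 129.1 kb over all protein-coding genes. That median fell on Mcm6, the last gene inside a zone, and the next gene stood at 151.6 kb, so it shifted with the zones kept. It was 248.7 kb without zones that have an arm at 100 kb, against 160.7 kb over all protein-coding genes, and 420.2 kb with zones of at least median width, against 323.3 kb, so that in both cases the MCM genes were the farther. Shares of 9 genes rest on very few genes, so each of these counts moves by 11.1 percentage points with a single gene.

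**Figure D1:**
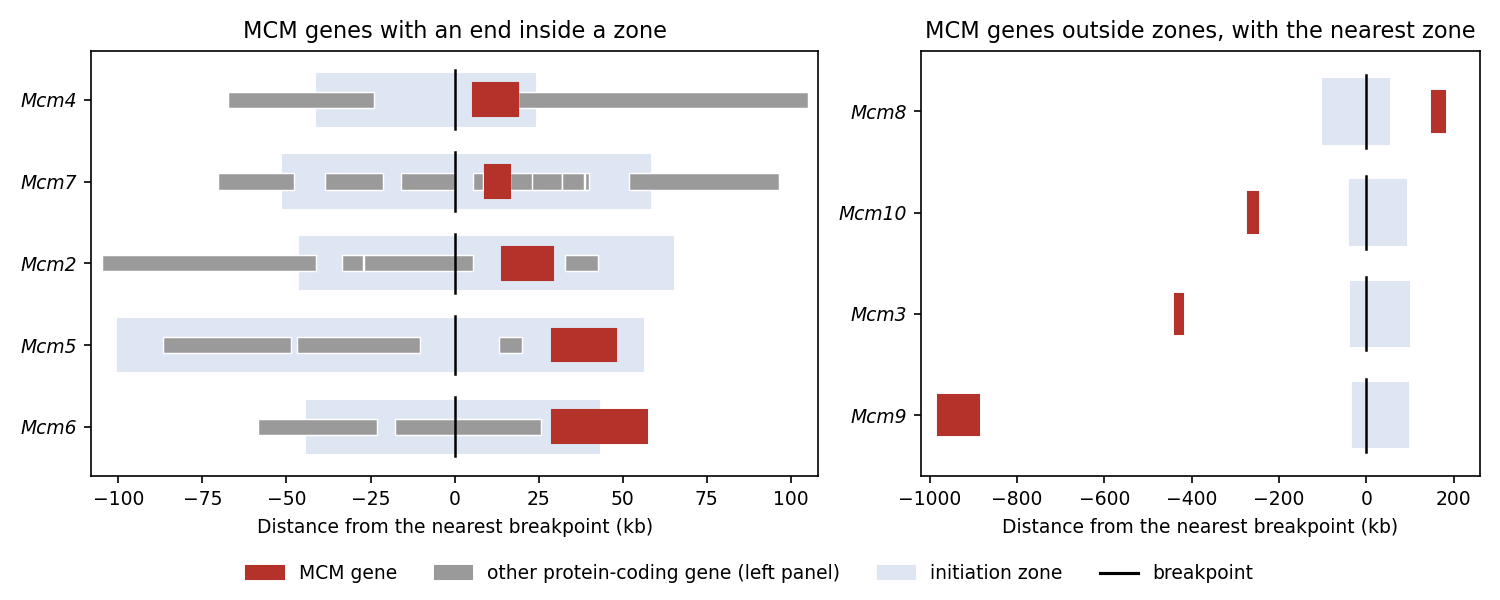
Position of each MCM gene (red) against the nearest breakpoint (black line, at 0 kb) and its initiation zone (pale blue), with other protein-coding genes that have an end in the zone in grey, shortened at the frame. The 5 genes of the left panel all lie right of their breakpoint, between 5.40 and 57.2 kb from it; the 4 genes of the right panel lie 151.6 to 981.2 kb from theirs.

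Start regions of the ring subunit genes are shown here because the zones hold the starts of Mcm2, Mcm5 and Mcm7 but not those of Mcm6 and Mcm3. They come from RefSeq (GRCm38.p6, the same build as mm10), which matched 8 of the 9 genes, all but Mcm4, in 9 windows. Each window runs from 250 bases before to 50 after an annotated start and is printed 5′ to 3′ on the gene's strand. Capitals mark 2 kinds of match on either strand: E2F-type motifs, here TTTCCCGC, TTTCGCGC, TTTGCCGC and TTTGGCGC, and the CCAAT box. E2F factors are known to drive genes of the G1 to S transition, and the CCAAT box is bound by NF-Y. The windows are chr6:88898731-88899030 (minus strand) for Mcm2, chr8:75109259-75109558 (plus strand) for Mcm5, chr1:128359656-128359955 (minus strand) for Mcm6, chr5:138171834-138172133 (minus strand), the more upstream of 2 windows, for Mcm7, and chr1:20820263-20820562 (minus strand) for Mcm3.
Mcm2: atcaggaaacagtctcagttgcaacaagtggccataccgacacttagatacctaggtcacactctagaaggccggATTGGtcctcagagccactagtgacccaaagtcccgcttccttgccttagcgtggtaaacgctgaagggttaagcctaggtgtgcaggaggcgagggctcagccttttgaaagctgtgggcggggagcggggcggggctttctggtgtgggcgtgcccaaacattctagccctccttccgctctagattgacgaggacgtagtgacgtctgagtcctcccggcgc
Mcm5: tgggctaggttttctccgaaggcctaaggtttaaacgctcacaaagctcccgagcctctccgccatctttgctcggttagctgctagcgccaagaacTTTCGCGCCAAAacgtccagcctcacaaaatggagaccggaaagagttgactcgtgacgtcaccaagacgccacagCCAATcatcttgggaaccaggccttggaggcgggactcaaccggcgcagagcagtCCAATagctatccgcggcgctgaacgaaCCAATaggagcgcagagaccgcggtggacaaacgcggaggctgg
Mcm6: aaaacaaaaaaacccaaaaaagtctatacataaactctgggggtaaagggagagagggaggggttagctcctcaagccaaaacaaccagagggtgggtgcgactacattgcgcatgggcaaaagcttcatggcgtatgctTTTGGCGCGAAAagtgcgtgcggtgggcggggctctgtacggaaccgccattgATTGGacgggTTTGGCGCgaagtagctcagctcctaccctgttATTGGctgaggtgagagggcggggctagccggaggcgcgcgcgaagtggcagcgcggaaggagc
Mcm7: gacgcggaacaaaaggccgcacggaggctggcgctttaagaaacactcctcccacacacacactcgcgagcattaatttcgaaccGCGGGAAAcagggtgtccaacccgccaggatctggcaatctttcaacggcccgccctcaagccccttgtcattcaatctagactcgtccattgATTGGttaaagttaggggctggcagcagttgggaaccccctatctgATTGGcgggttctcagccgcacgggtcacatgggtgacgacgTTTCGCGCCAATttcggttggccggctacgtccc
Mcm3: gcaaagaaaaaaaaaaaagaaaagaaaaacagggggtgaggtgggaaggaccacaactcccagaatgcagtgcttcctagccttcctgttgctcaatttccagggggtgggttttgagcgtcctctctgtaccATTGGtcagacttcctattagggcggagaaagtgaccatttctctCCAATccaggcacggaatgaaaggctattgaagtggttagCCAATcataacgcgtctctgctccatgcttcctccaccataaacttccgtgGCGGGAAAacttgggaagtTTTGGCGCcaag

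An E2F-type motif stood in 5 of the 9 MCM windows (55.6%), against 2.85% of the 20084 windows of protein-coding genes. The 5 windows belonged to Mcm3, Mcm5, Mcm6, Mcm7 and Mcm8, and so to genes inside and outside zones. Mcm6 had 3 matches, and Mcm3, Mcm5 and Mcm7 had 2 each. Some of them overlap: in Mcm5 and in the upstream pair of Mcm6 a match on one strand shares bases with a match on the other, and in Mcm7 the motif TTTCGCGC runs into a CCAAT box. Mcm2, Mcm9 and Mcm10 held none of these letters in their windows. The CCAAT box was present in all 9 MCM windows, against 38.1% of protein-coding windows. The windows of Mcm3, Mcm5, Mcm10 and the upstream window of Mcm7 held 3 each, Mcm6 held 2, and the others held 1. Median GC content was 57.3% in the MCM windows and 57.0% in protein-coding windows, while the median number of CpG dinucleotides, which the E2F-type motifs contain, was 24 in the MCM windows and 14 in protein-coding windows. The part of CpG content in the motif counts was not tested. These matches describe letters and are not sites of binding.

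Mcm4 was nearest to a breakpoint. The gene (gene ID 17217, chromosome 16, 15623897 to 15637400, 13.5 kb) had its nearer end 5.40 kb and its farther end 18.9 kb right of the breakpoint, and 4.52% of protein-coding genes were nearer to one. Its zone, from 15577001 to 15643000, was the narrowest of the 5, at 65 kb, and 10.5% of all zones were narrower. The right arm measured 24 kb and the left arm 41 kb, and Mcm4 covered 56.3% of that short right arm. Only 43 bases separated Mcm4 from Prkdc, the gene of the catalytic subunit of DNA-dependent protein kinase, whose nearer end lay 18.9 kb from the breakpoint and whose body ran on to 223.7 kb, far beyond the zone. On the left, Ube2v2, a ubiquitin-conjugating enzyme variant, had its nearer end 24.0 kb from the breakpoint. The breakpoint itself lay in no protein-coding gene. Another breakpoint followed 259 kb away, the shortest spacing among the zones that hold an MCM gene.

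Mcm7 came next and lay in the most crowded zone. The gene (gene ID 17220, chromosome 5, 138164583 to 138172111, minus strand) is 7.53 kb long, the shortest of the 9, and spanned 9.08 to 16.6 kb right of the breakpoint, or 15.7 to 28.6% of the right arm. The zone, from 138104001 to 138214000, was 109 kb wide with arms of 51 and 58 kb. It held an end of 10 protein-coding genes, Mcm7 included, a number that 98.5% of zones stayed below and that compares with a median of 2 over all zones. The breakpoint fell within the body of Zfp113, a zinc finger gene whose end was 0.244 kb away, less than the 1 kb bin can resolve. Cops6, of the COP9 signalosome, had its nearer end at 5.60 kb and ended 598 bases before Mcm7. Ap4m1, of the adaptor complex AP-4, at 16.5 kb, overlapped Mcm7 by 91 bases where both genes start and is read on the opposite strand. On the left side, Zscan21, a zinc finger gene, had its nearer end at 21.2 kb.

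Mcm7 is the host of 3 microRNA genes, Mir25, Mir93 and Mir106b, which lay 9.82 to 10.2 kb from the breakpoint and thus in the same arm. They are shown as the other transcripts made from inside this MCM gene. Mature strands are given from RefSeq (GRCm38.p6) with the seed, bases 2 to 8, in capitals.
mmu-miR-106b-5p: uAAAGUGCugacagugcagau
mmu-miR-93-5p: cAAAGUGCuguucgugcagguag
mmu-miR-25-3p: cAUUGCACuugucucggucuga
The seed AAAGUGC is shared by miR-106b-5p and miR-93-5p and was found in 7 of 1679 mature sequences of the table, among them miR-17-5p and miR-20a-5p. The seed of miR-25-3p, AUUGCAC, was found in 6, among them miR-92a-3p and miR-32-5p. The strands lie on chromosome 5 at 138165787 to 138165807 for miR-106b-5p, 138165574 to 138165596 for miR-93-5p and 138165332 to 138165353 for miR-25-3p, all on the minus strand like Mcm7.

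Mcm2, which carries the substitutions in the MCM2_2A clones, lay in the inner part of the right arm of its zone, towards the breakpoint. The gene (gene ID 17216, chromosome 6, 88883474 to 88898780, minus strand, 15.3 kb) spanned 13.97 to 29.28 kb from the breakpoint, or 21.5 to 45.0% of the arm. Its zone, from 88823001 to 88935000, was close to the median in width, at 111 kb against 112 kb over all zones, with a left arm of 46 kb and a right arm of 65 kb. It held an end of 5 protein-coding genes. The breakpoint lay in the body of Podxl2, a sialomucin gene, whose nearer end was 5.55 kb right of it and 8.43 kb from Mcm2. Abtb1 at 27.1 kb and the monoglyceride lipase gene Mgll at 41.1 kb lay on the left, and Tpra1, which encodes a membrane protein, followed Mcm2 on the right after 3.47 kb. Distances were also compared with those of 45 other genes, of replication or tied to MCM proteins by name or function. The 2 with a nearer-end distance most like that of Mcm2 were Cdk1 and Prim1. Cdk1, the mitotic cyclin-dependent kinase gene, stood at 14.6 kb and the primase gene Prim1 at 12.5 kb. Likeness was the absolute log2 ratio of the distances (0.062 and 0.164) in this 1 library, without regard to side. Cdk1 and Prim1 lay left of their breakpoints, whereas Mcm2 lay right of its own.

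Mcm5 and Mcm6 stood farther out in their zones. Mcm5 (gene ID 17218, chromosome 8, 75109468 to 75128439, plus strand, 18.97 kb) spanned 29.0 to 47.9 kb from the breakpoint, or 51.7 to 85.6% of the right arm. Its zone, from 74980001 to 75137000, was the widest of the 5, at 156 kb, and 88.5% of all zones were narrower. The left arm reached 100 kb, the limit of arms in this list, so the zone may be longer than listed, and the right arm measured 56 kb. Within it lay Hmox1, the heme oxygenase 1 gene, at 13.1 kb on the same side as Mcm5, and on the left the trafficking gene Tom1 at 10.4 kb and the HMG-box gene Hmgxb4 at 48.5 kb. The breakpoint was in no protein-coding gene. This zone was the most isolated of the 5, with 1269 kb to the next breakpoint bin, a spacing that 93.2% of zones stayed below.

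Mcm6 (gene ID 17219, chromosome 1, 128331575 to 128359705, minus strand, 28.1 kb) was the only one of the 5 to cross a zone edge. Its nearer end lay 29.1 kb from the breakpoint, while the farther end, where transcription starts, lay at 57.2 kb, 13.7 kb beyond the right edge. The zone, from 128258001 to 128346000, was 87 kb wide, with almost equal arms of 44 and 43 kb. The breakpoint fell in the body of the lactase gene Lct, which is read on the same strand. Lct lay 3.26 kb left of Mcm6, on the side where Mcm6 transcription ends, and Ubxn4 had its nearer end at 23.1 kb on the left. The distances of Mcm5 and Mcm6 differ by less than the bin of 1 kb and do not rank these genes. The other steps in the order Mcm4, Mcm7, Mcm2 and Mcm5 are each larger than the bin, but they depend on the points measured. To the point midway between zone edges, Mcm2 stood at 4.47 kb, Mcm7 at 5.58 kb and Mcm4 at 13.9 kb, so Mcm4 was not the nearest. From gene midpoints to breakpoints, Mcm4 (12.15 kb) and Mcm7 (12.85 kb) differed by less than the bin.

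**Figure D2:**
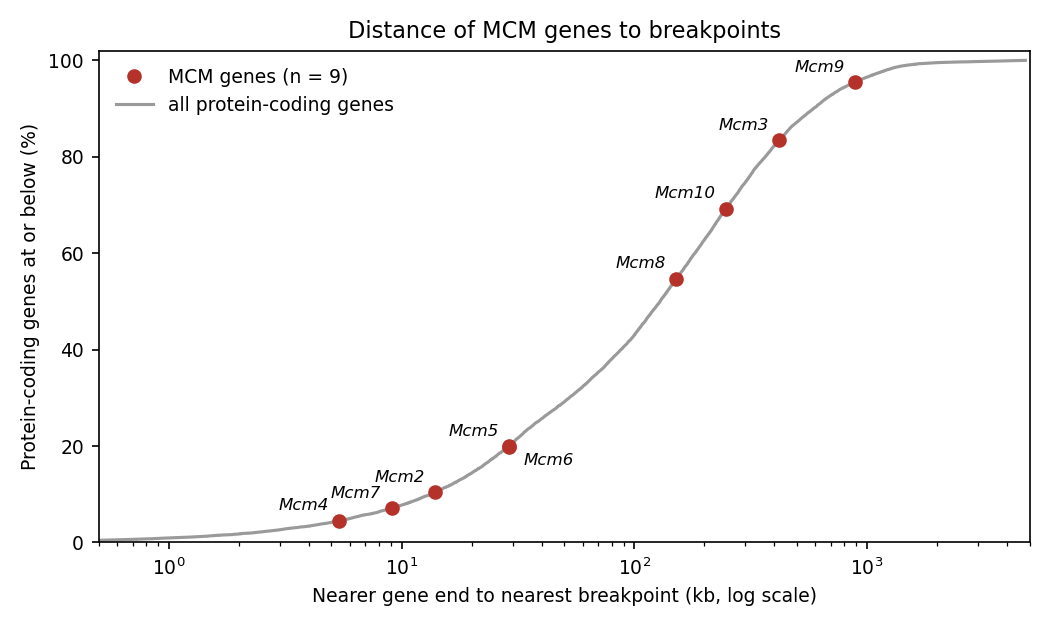
Distance from the nearer gene end to the nearest breakpoint (x, kb, log scale) for the 9 MCM genes (red) on the cumulative curve of all protein-coding genes (y, percent of genes). The 5 genes inside zones sit between 4.52% (Mcm4) and 20% (Mcm6) of the curve, and Mcm8, Mcm10, Mcm3 and Mcm9 sit at 54.7, 69.2, 83.4 and 95.5%.

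The 5 genes inside zones shared a side in chromosome coordinates, and 3 of the 4 with known strand shared a direction. All 5 lay right of their breakpoint, against 50.8% of the protein-coding genes that have an end in a zone and lie on a single side. Strand was known for 4 of the 5, all but Mcm4. Mcm2, Mcm6 and Mcm7 were transcribed towards their breakpoint and Mcm5 away from it. Thus 3 of 4 ran towards it, against 40.2% of 4764 protein-coding genes of this kind. Shares of 4 or 5 genes rest on very few genes, and neither side nor direction was tested. Where rightward forks prevail, as they do by definition of the map on the right of a zone, a minus-strand gene is transcribed against the forks. Fork direction at the MCM genes themselves is not part of the list, and how strongly rightward forks prevailed was not measured here. In 3 of the 5 zones, those of Mcm2, Mcm6 and Mcm7, the breakpoint lay in the body of a neighbouring gene (Podxl2, Lct and Zfp113), against 29.2% of all zones. For Zfp113 this cannot be resolved, since its end lay 0.244 kb from the middle of the 1 kb bin. The zones of Mcm2, Mcm6 and Mcm7 held an end of 5, 3 and 10 protein-coding genes, against a median of 2 over all zones. All zones include some without an end of a protein-coding gene, whereas these zones were taken because they hold such an end. Neither the 29.2% nor the median of 2 is thus a like comparison. Podxl2, Lct and Zfp113 are on the minus strand, as are Mcm2, Mcm6 and Mcm7. For a gene right of its breakpoint, the minus strand and reading towards the breakpoint are the same trait. The strand of such neighbours was not counted over all zones.

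No pair of MCM genes shared a zone, and the 5 zones had little in common in shape. They were 65 to 156 kb wide with a median of 109 kb, against a median of 112 kb and quartiles of 82 and 138 kb over all zones. The right arm, which held the MCM gene, ranged from 24 to 65 kb and the left arm from 41 to 100 kb, and the right arm was the longer in 2 of the 5 zones. Besides the MCM genes, the 5 zones held an end of 20 protein-coding genes, and of 28 genes when all kinds were counted. The Mcm7 zone alone gave 9 of the 20.

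**Figure D3:**
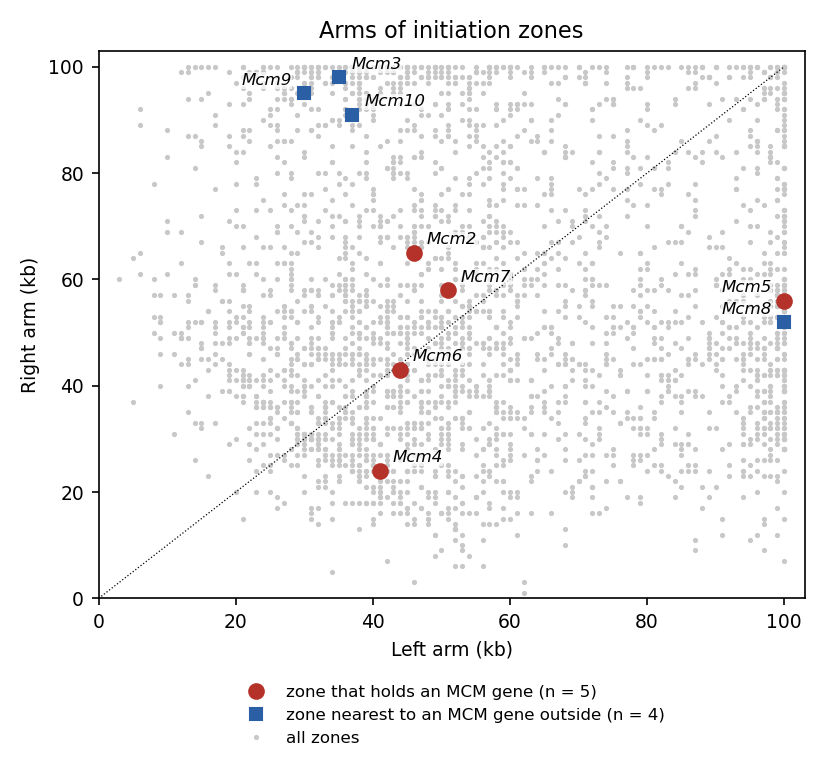
Left arm (x, kb) and right arm (y, kb) of each initiation zone, with the 5 zones that hold an MCM gene in red, the zones nearest to the other 4 MCM genes in blue and all zones in grey. The zones of Mcm5 and Mcm8 sit at the 100 kb limit of the left arm, and the dotted line marks equal arms.

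The 4 MCM genes outside zones lay in long stretches without zones. The distance between the breakpoints on either side was 1576 kb for Mcm8, 1777 kb for Mcm10, 2207 kb for Mcm9 and 2979 kb for Mcm3, a median of 1992 kb. The median over all 2825 pairs of neighbouring breakpoints was 592 kb. Since a gene is more likely to fall in a long stretch than in a short one, the closer comparison is with all 13494 protein-coding genes outside zones between a pair of breakpoints, these 4 included, for which the median was 1036 kb with quartiles of 632 and 1758 kb. Of the 4 stretches, 3 lay above that upper quartile and that of Mcm8 below it.

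Mcm3 (gene ID 17215, chromosome 1, 20802966 to 20820312, minus strand, 17.3 kb) was the ring subunit gene without a zone. The nearest zone began 384.7 kb to its right, with its breakpoint 420.2 kb away, and on its left the next zone ended 2490 kb away. The zone-free stretch around Mcm3 measured 2892 kb. The breakpoints on either side were 2979 kb apart, and 64 of the 2825 breakpoint distances of the list were longer. In the nearest zone, from 21205001 to 21339000, the glutathione transferase gene Gsta3 had an end 0.065 kb from the breakpoint, a distance below the bin, and Tmem14a, a membrane protein gene, had one at 10.3 kb. The immediate neighbours of Mcm3, named after their values were seen, were the interleukin gene Il17f, 17.7 kb away, and Paqr8, 70.2 kb away.

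Mcm9 (gene ID 71567, chromosome 10, 53536315 to 53630006, minus strand) was the longest of the 9 genes, at 93.7 kb, and the farthest from any breakpoint, at 887.5 kb. The nearest zone, from 54487001 to 54613000, began 857.0 kb to its right and held no end of a protein-coding gene, and the zone on its left ended 1133 kb away. Mcm9 was the only MCM gene with no breakpoint within 500 kb. Its partner in the same complex, Mcm8 (gene ID 66634, chromosome 2, 132816137 to 132844197, plus strand, 28.1 kb), was the closest of the outside genes, with its nearer end 151.6 kb right of a breakpoint and 99.1 kb beyond the zone edge. That zone, from 132564001 to 132717000, also had a left arm at the 100 kb limit, and held an end of Shld1, a shieldin complex gene of DNA break repair, at 22.4 kb and of Gpcpd1 at 86.3 kb. Just 82 bases separated Mcm8 from Trmt6, a tRNA methyltransferase subunit gene named after its value was seen.

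Mcm10 (gene ID 70024, chromosome 2, 4990724 to 5012791, minus strand, 22.1 kb) lay near the start of its chromosome. The nearest zone, from 5224001 to 5353000, began 211.2 kb to its right with its breakpoint at 248.7 kb, and the zone on the left ended 1437 kb away, at position 3554000. In the nearest zone Ccdc3 had an end 25.5 kb and Camk1d, a calcium/calmodulin-dependent kinase gene, an end 31.96 kb from the breakpoint. Mcm8 and Mcm10 are both on chromosome 2 and Mcm3 and Mcm6 both on chromosome 1, but far apart in each case.

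**Figure D4:**
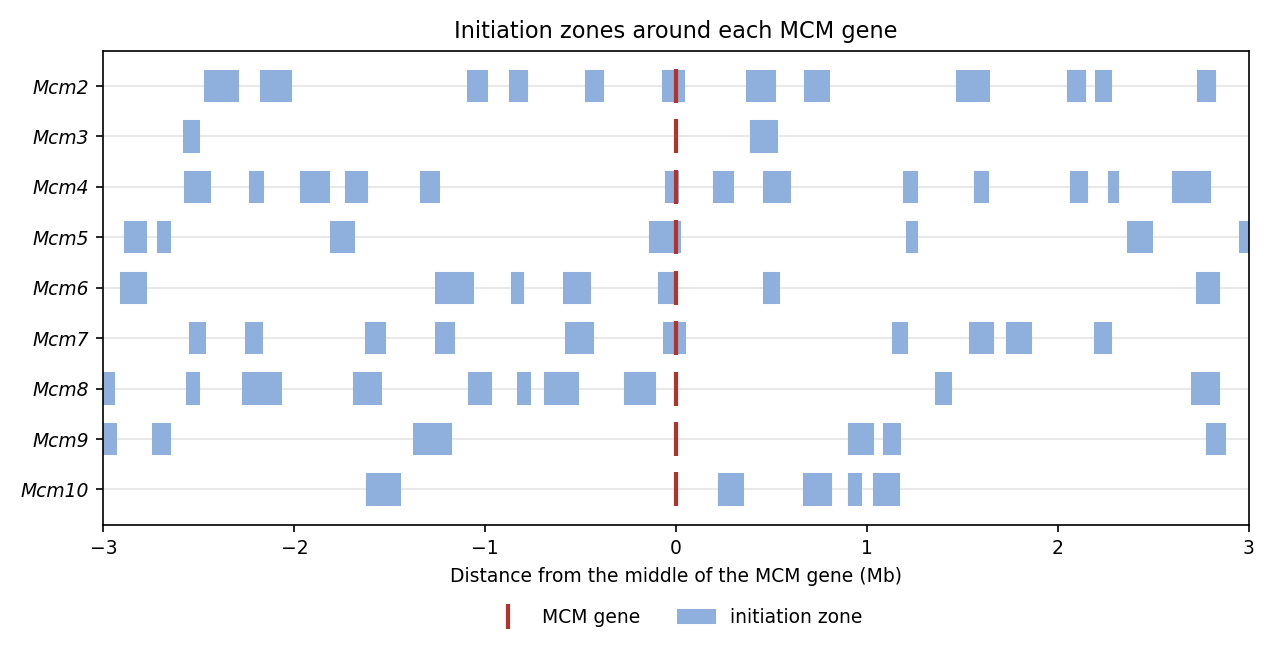
Initiation zones (blue) within 3 Mb on either side of the middle of each MCM gene (red). Mcm3 and Mcm9 stand in stretches of 2892 and 2084 kb without a zone, whereas Mcm2, Mcm4, Mcm5, Mcm6 and Mcm7 each overlap a zone.

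Among the MCM genes inside zones, only Mcm7 had more protein-coding genes around it than the median over all protein-coding genes. Within 500 kb of the gene, Mcm7 had 34 other protein-coding genes, Mcm2 had 12, Mcm6 had 8, Mcm5 had 6 and Mcm4 had 5. Outside zones, Mcm10 had 10, Mcm3 and Mcm8 had 8 each and Mcm9 had 6. The median over the 9 was 8, against 17 over all protein-coding genes, whose quartiles were 9 and 29. The number of breakpoints within 500 kb was 3 for Mcm2 and Mcm6, 2 for Mcm4, 1 for Mcm3, Mcm5, Mcm7, Mcm8 and Mcm10 and 0 for Mcm9, with a median of 2 over all protein-coding genes.

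Other genes, of replication or tied to MCM proteins, were set beside the MCM genes in 5 lists of 45 genes in all. Of these, 17 (37.8%) had an end inside a zone, a share near the 32.4% of all protein-coding genes. In the licensing list, 4 of 10 genes were inside. Apart from Mcmbp, which encodes an MCM-binding protein, the products of this list load the MCM ring onto DNA or restrain its loading. Orc2 and Orc5, of the origin recognition complex, lay 4.39 and 17.2 kb from breakpoints, while Cdc6, of the loading machinery, stood 680.7 kb from a zone edge. Of 14 genes for assembly of the active helicase with CDC45 and GINS and for fork protection, 4 were inside. Tipin, of the fork protection complex, lay at 8.99 kb and Ticrr, which acts in helicase activation, at 25.7 kb from a breakpoint, while Topbp1, which recruits replication and checkpoint factors, was 509.2 kb from a zone. Of 11 polymerase and primase genes, 3 were inside. The polymerase epsilon subunit gene Pole2 lay at 4.30 kb and Prim1 at 12.5 kb from a breakpoint, and Prim2 1068 kb from a zone. The polymerase gene Pola1 is on chromosome X, which the zones do not cover, and is not among the 11. Among 7 kinase and cyclin genes of S phase, 4 were inside. Cdk2 lay 4.45 kb and Dbf4, which holds a breakpoint in its body, 8.53 kb from one, and Cdc7, whose kinase DBF4 activates and which phosphorylates the MCM ring, was 1021 kb from a zone.

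The last list held 3 genes tied to MCM proteins by name or function, of which 2 were inside, where 32.4% of all protein-coding genes were. Mcmdc2, which encodes a germ-line MCM-domain protein, and Mcm3ap, whose product binds MCM3 and acts in RNA export, came as close as 4.89 and 5.40 kb to one. Hrob, the cofactor of MCM8 and MCM9, lay 34.8 kb from a zone. The median distance to a breakpoint was 177.3 kb in the licensing list, 157.3 kb for helicase assembly and fork protection, 76.3 kb for polymerases and primase, 47.5 kb for kinases and cyclins and 5.40 kb for the MCM-related list. The MCM genes, at a median of 29.1 kb, stood between these values, and their share inside zones was near that of the kinases and cyclins (57.1%), beside the 32.4% of all protein-coding genes. The lists are small, and differences between them were not tested.

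**Figure D5:**
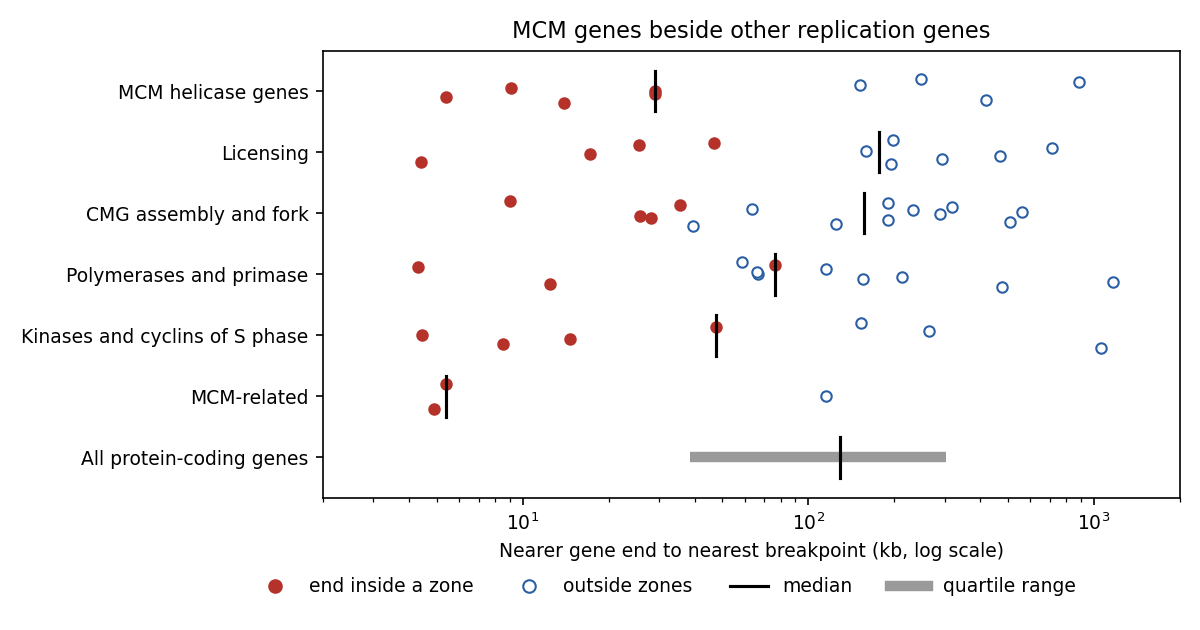
Distance from the nearer gene end to the nearest breakpoint (x, kb, log scale) for the MCM genes and 5 lists of other genes. The lists hold genes of replication or genes tied to MCM proteins. Each point is 1 gene, filled where the gene has an end inside a zone. Black lines are medians and the grey bar is the quartile range of all protein-coding genes (38.4 to 302.7 kb).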

How the data were processed

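The OK-seq list was deposited by the authors as other values than counts: distances in bp between a breakpoint bin, a minimum on its left and a maximum on its right, per the file headers. Per the submitters' processing notes the build was mm10, and the tools named are Picard 2.8.2, SAMtools, Bowtie, BWA 0.7.13, Trim Galore 0.4.2 and bcl2fastq, with roles and settings not given in the sources used here. Chromosomes 1 to 19 are covered, arms reach at most 100 kb, and depth is unknown.

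From it, with Python 3.11.15, numpy 2.4.6, pandas 2.3.3 and matplotlib 3.10.9, gene ends of the RefSeq table (GRCm38.p6) were measured to the middle of the nearest breakpoint bin and to zone edges. Strand came from the promoter table (80.1% of protein-coding genes), and genes on scaffolds were left out. The code was checked on simulated zones. The members and lists were chosen with earlier results of these data known. Apart from the members, genes were named by rule: up to 4 protein-coding genes nearest to the breakpoint of each zone, microRNA genes inside a member, and in each list the 2 genes nearest to a breakpoint and the 1 farthest from a zone, with the 2 genes most like Mcm2 in distance. Exceptions are stated beside the gene. The protein sequence of MCM2 was not used here.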

Additional observations from a re-analysis of the deposited data

How the results depend on the processing

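The MCM genes were recounted under other choices of zones and gene points, and no alternative has an error, since there is 1 library. Keeping the wider zones alone, from the median width up (1429 of 2844), left 1 MCM gene, Mcm5, inside a zone and 1 within 20 kb, with a median distance of 420.2 kb, against 20.1%, 23.4% and 323.3 kb for all protein-coding genes; the zones of Mcm2, Mcm4, Mcm6 and Mcm7 are narrower than that median. The median distance was 248.7 kb without zones that have an arm at 100 kb, against 160.7 kb for all protein-coding genes. That setting removes the zone of Mcm5 and also the zone nearest to Mcm8. It leaves 4 MCM genes inside, against 27.9% of all protein-coding genes. Under both settings the MCM median was thus above that of all genes, not below it. The MCM median was 51.0 kb to the point midway between zone edges, against 128.3 kb, and 43.1 kb from gene midpoints, against 151.9 kb. With transcription starts, 3 of 8 genes were inside (28.1% of protein-coding genes), since the start of Mcm6 lies beyond its zone and the strand of Mcm4 was not used, and the median was 104.4 kb, against 148.9 kb. The other counts, those with merged zones and with limits of 5 and 50 kb included, stayed within 1.5 times the reported ones. Counts inside zones do not use the breakpoint and so could not change with the midway point. No paired analysis was possible because only 1 library has values.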

Other observations

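The E2F-type motifs searched in the MCM start regions were also counted around zones in general. Of 5635 windows of protein-coding genes with the start inside a zone, 4.21% held such a motif, against 2.32% of 14449 windows with the start outside zones, and the CCAAT box was found in 36.2 and 38.9%. Windows inside zones also had a higher median GC content (60.3%, against 55.3%) and more CpG dinucleotides (a median of 19, against 10), and the part of base composition in the motif counts was not tested. Genes can have several overlapping windows, so these are counts of windows and not of genes.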
